A study of Homo sapiens with 6 samples.

Results

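The vacuolar proton pump (V-ATPase) couples ATP hydrolysis to the movement of protons into endosomes, lysosomes and secretory vesicles. It has a soluble V1 sector, which hydrolyses ATP, and a membrane-embedded V0 sector, which carries the protons. Expression of 8 V1 subunit genes was examined among 18417 genes measured on Affymetrix whole-transcript arrays. The members were ATP6V1A, ATP6V1B2, ATP6V1C1, ATP6V1D, ATP6V1E1, ATP6V1F, ATP6V1G1 and ATP6V1H. They were chosen by gene symbol from the platform annotation, and the family was selected on the low value of ATP6V1D with DKK2 siRNA in these arrays. The siDKK2 values of the 8 genes are therefore given as a description, without a test. Each of the 8 genes had 1 probe set, so no choice between probe sets entered their values.

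The study transfected 2 established Ewing sarcoma cell lines, A673 and SK-N-MC, with an siRNA against DKK2 (siDKK2, number 1 in both lines), an siRNA against ITM2A (siITM2A, number 7 in A673 and number 1 in SK-N-MC), or a non-silencing control siRNA. Ewing sarcoma arises mostly in bone and carries a fusion that joins EWSR1 to a gene of the ETS family of transcription factors. The DKK2 product is secreted and acts on the receptors of Wnt signals. ITM2A, which encodes a membrane protein, was knocked down separately and is set against the same control arrays. All cultures were grown in the same serum-rich medium with added glucose. There was 1 array for each line and siRNA, 6 in all, so each target had its 2 arrays in different lines, and the small number of arrays limits the precision. Whether the ITM2A siRNAs numbered 7 and 1 are the same oligonucleotide is not stated, so the siITM2A values may join a difference of siRNA to that of line. The DKK2 siRNA had the same number in both lines, so an effect of lower DKK2 and other effects of that siRNA cannot be told apart. The siRNA sequences were not given, so matches to ATP6V1D were not examined. The time after transfection, the siRNA dose and the passage of the cells were not given in the labels.

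All values are log2 RMA values per probe set. Array medians lay between 3.35 and 3.44, and the median gene had a mean level of 4.04. DKK2 stood at 7.73 with siDKK2 against 8.64 with control siRNA in A673, and at 6.50 against 8.01 in SK-N-MC. ITM2A stood at 5.03 with siITM2A against 8.52 with control siRNA in A673, and at 6.10 against 9.48 in SK-N-MC. Both labels thus matched a lower value of the targeted gene. The 5 measured Ewing sarcoma markers were above the level of the median gene on every array, among them CD99 at 9.79 to 10.73. Of 6 markers of other cell types, 5 were under that level on every array, among them the leukocyte gene PTPRC at 1.90 to 2.09. The sixth, CD68, a lysosomal glycoprotein used as a macrophage marker, ranged from 4.06 to 6.41. With siDKK2 it was at 5.11 against 6.41 with control siRNA in A673 and at 4.06 against 4.44 in SK-N-MC, differences of -1.31 and -0.38. Its part in the values of the pump genes was not tested. On bulk arrays a change in the number of transcripts per cell and a change in the make-up of the culture cannot be told apart.

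Within V1, subunits A and B form the head that binds and hydrolyses ATP. Subunits D and F form the central shaft, whose rotation drives the proton-carrying ring of V0. Subunits C, E, G and H belong to the outer stalks and the collar that hold the head in place, and H also restrains ATP hydrolysis when V1 is detached from the membrane. In vertebrates the genes for A, D, F and H have no close paralog in the pump, whereas B, C, E and G each have additional, tissue-restricted isoforms.

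ATP6V1D, the gene for a shaft subunit, lies at chr14:67337872-67359804 on the minus strand, with its start 524 bases from the start of EIF2S1, which encodes the alpha subunit of translation initiation factor eIF2 and is read in the opposite direction. The 250 bases before each of these starts are shown because the neighbours share this stretch of the genome and had unlike values with siDKK2, and the promoter of ATP6V1G1, a stalk subunit, is shown as one of a member that stayed near its control level. The sequences are RefSeq's, build GRCh38.p14, written 5′ to 3′. They cover chr14:67359805-67360054 on the minus strand for ATP6V1D, chr14:67360078-67360327 on the plus strand for EIF2S1 and chr9:114587519-114587768 on the plus strand for ATP6V1G1. Capitals mark CGGAAG, a core bound by ETS factors, in the sequences of ATP6V1D and EIF2S1, and CACGTG, the E-box core bound by the lysosomal regulator TFEB and many other factors, in that of ATP6V1G1.
ATP6V1D: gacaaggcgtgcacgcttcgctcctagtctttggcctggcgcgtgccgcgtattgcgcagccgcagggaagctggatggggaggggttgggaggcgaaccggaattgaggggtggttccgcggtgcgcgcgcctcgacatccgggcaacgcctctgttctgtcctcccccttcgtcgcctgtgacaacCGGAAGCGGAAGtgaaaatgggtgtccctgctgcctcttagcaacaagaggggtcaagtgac
EIF2S1: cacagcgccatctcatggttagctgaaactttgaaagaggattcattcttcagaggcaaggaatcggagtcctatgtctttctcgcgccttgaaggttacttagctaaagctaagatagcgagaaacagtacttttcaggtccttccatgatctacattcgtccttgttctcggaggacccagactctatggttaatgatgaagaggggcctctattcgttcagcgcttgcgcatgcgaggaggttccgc
ATP6V1G1: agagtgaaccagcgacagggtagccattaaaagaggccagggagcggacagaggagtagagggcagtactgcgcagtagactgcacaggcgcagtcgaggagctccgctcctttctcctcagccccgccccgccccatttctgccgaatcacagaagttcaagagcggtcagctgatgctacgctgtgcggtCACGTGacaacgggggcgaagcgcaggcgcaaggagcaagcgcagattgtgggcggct

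The ETS core, read on both strands, occurred at 2 places next to each other in the ATP6V1D window, 62 and 56 bases before the start, and at 0 places in the EIF2S1 window. Both places lie between the 2 gene starts but outside the EIF2S1 window, so the 0 holds for that window only. The ETS core occurred in 16.5% of 35116 promoter windows of the same length. The E-box core, which reads the same on both strands, occurred at 1 place in the ATP6V1G1 window, 58 bases before the start, and in 6.34% of all windows. Promoter windows were at hand for 4 of the 8 members, ATP6V1D, ATP6V1E1, ATP6V1F and ATP6V1G1. Of these 4, 1 held the E-box core and 1 the ETS core. These matches describe the letters only and say nothing of which factors were bound.

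With DKK2 siRNA, ATP6V1D was the only one of the 8 V1 genes that was at least 2-fold lower than with control siRNA, and it was so by a like amount in both lines. ATP6V1D (probe set 7979698) stood at 5.20 with siDKK2, against 6.83 with siITM2A and 7.01 with control siRNA, in A673. In SK-N-MC it stood at 4.70 with siDKK2, against 6.16 with siITM2A and 6.46 with control siRNA. The siDKK2 array was the lowest of the 3 in each line, and the values with siITM2A differed from control by -0.18 (A673) and -0.30 (SK-N-MC). The differences from control of -1.81 and -1.76 left 28.5% (A673) and 29.6% (SK-N-MC) of the control level. The fitted difference was -1.78 ± 0.13 (SE, n = 2 lines).

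**Figure D1:**
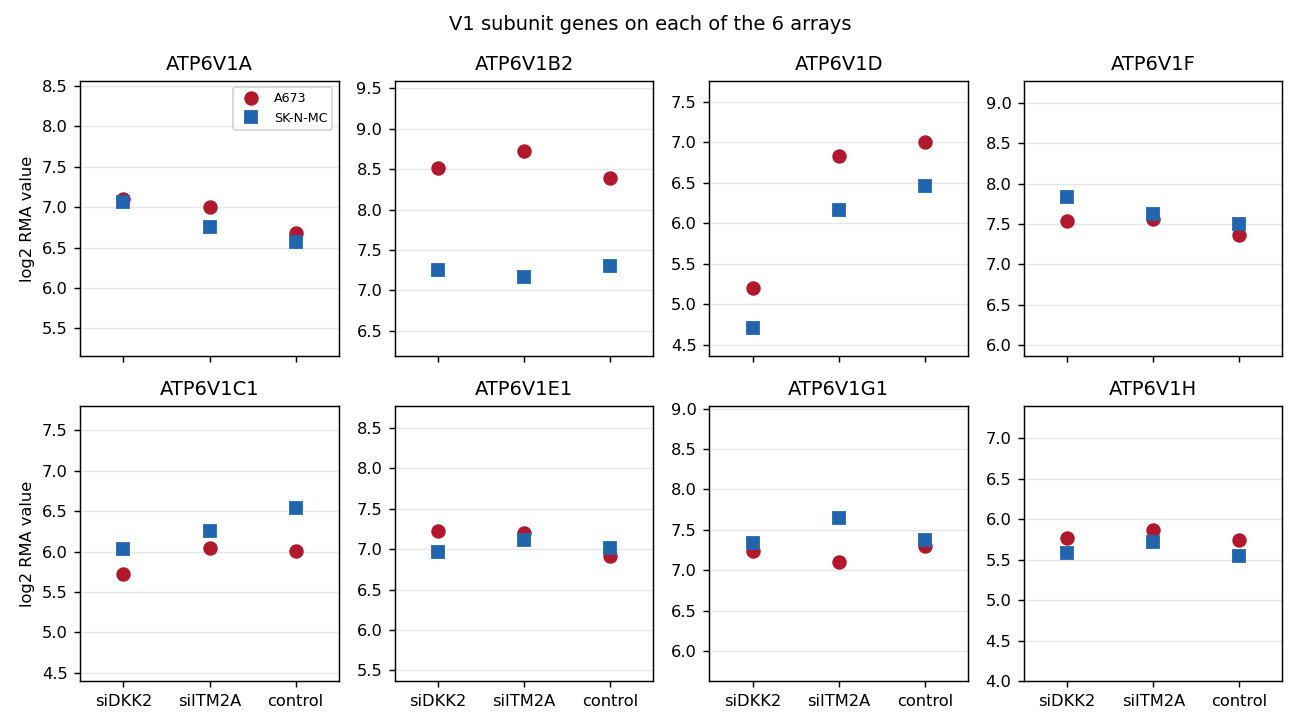
Log2 RMA values of the 8 V1 subunit genes (vertical axes, each spanning the same range) by siRNA (horizontal axis), with 1 array per point, A673 as circles and SK-N-MC as squares. ATP6V1D is at 5.20 and 4.70 with siDKK2 and between 6.16 and 7.01 on the other 4 arrays, while the lines stand apart for ATP6V1B2.

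Among all 18417 genes ATP6V1D ranked 45th from the lowest difference in A673 and 4th in SK-N-MC. At least 2-fold lower values in both lines were met by 13 genes (0.0706% of those measured), and ATP6V1D was the 1 V1 gene among them. By the fit across all genes 2 genes passed an adjusted p of 0.05 for siDKK2 against control (0.0109%), ATP6V1D being 1 of them. Since these values chose the family, neither count supports anything further about it.

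The other 7 V1 genes spanned siDKK2 differences of -0.29 to 0.41 in A673 (median 0.13), and their range on the SK-N-MC arrays was -0.50 to 0.49 (median -0.02). The medians over all genes were -0.04 and -0.01. ATP6V1D therefore stood 1.52 below the next lowest V1 gene in A673 and 1.25 below it in SK-N-MC, and that next gene was ATP6V1C1 in both lines. The whole family of 8 was split, with 3 genes lower in both lines, 3 higher in both and 2 of mixed sign. Over all genes 31.6% were lower in both lines and 23.2% higher in both.

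The genes of the ATP-hydrolysing head did not share the low value of ATP6V1D. ATP6V1A, the catalytic subunit, had the highest siDKK2 differences of the family. It stood at 7.10 with siDKK2, 7.0 with siITM2A and 6.68 with control siRNA in A673, and at 7.06, 6.76 and 6.57 with the same siRNAs in SK-N-MC. Its siDKK2 differences were 0.41 and 0.49. Its siITM2A differences, from the same control arrays, were 0.32 and 0.19. ATP6V1B2, the non-catalytic head subunit of the widely expressed form, stood at 8.52 with siDKK2, 8.72 with siITM2A and 8.39 with control siRNA in A673. In SK-N-MC it stood at 7.25, 7.17 and 7.30 with the same siRNAs. Its siDKK2 differences were 0.13 and -0.04, small beside the gap between the lines.

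ATP6V1F, the partner of subunit D in the shaft, had the opposite sign to it. It stood at 7.54 with siDKK2, 7.56 with siITM2A and 7.37 with control siRNA in A673, and at 7.84, 7.63 and 7.50 with the same siRNAs in SK-N-MC. The siDKK2 differences of 0.18 and 0.34 made a fitted difference of 0.26 ± 0.13 (SE, n = 2 lines), where that of ATP6V1D was -1.78 ± 0.13. The 95% interval for ATP6V1F was -0.04 to 0.56 and held 0, while those of ATP6V1A (0.15 to 0.75) and ATP6V1C1 (-0.71 to -0.08) did not. These intervals come from the comparison that chose the family and are a description only. The siITM2A differences of ATP6V1F were also above 0, at 0.19 and 0.13.

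Among the genes of subunits C, E, G and H, only ATP6V1C1 was lower with siDKK2 by more than 0.1 in both lines. Its product, subunit C, links the stalks to the membrane sector and is released when the pump comes apart. It stood at 5.72 with siDKK2, 6.05 with siITM2A and 6.01 with control siRNA in A673. In SK-N-MC it stood at 6.03, 6.25 and 6.54 with the same siRNAs. The differences were -0.29 and -0.50, which left 81.6% and 70.5% of the control level, against 28.5% and 29.6% for ATP6V1D. 

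ATP6V1E1 and ATP6V1G1 encode the paired E and G subunits that make up the stalks, and neither had a siDKK2 difference beyond 0.1 in both lines. ATP6V1E1 stood at 7.22 with siDKK2, 7.20 with siITM2A and 6.92 with control siRNA in A673, and at 6.96, 7.11 and 7.02 with the same siRNAs in SK-N-MC. Its siDKK2 differences were 0.30 and -0.06. ATP6V1G1, whose promoter holds the E-box core printed above, stood at 7.24, 7.10 and 7.30 in A673 and at 7.34, 7.64 and 7.37 in SK-N-MC (siDKK2, siITM2A and control siRNA), with siDKK2 differences of -0.05 and -0.02.

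ATP6V1H, the gene of the regulatory subunit, stood at 5.77 with siDKK2, 5.87 with siITM2A and 5.74 with control siRNA in A673. In SK-N-MC it stood at 5.58, 5.72 and 5.55 with the same siRNAs, and the siDKK2 difference was 0.03 in each line. Across the 3 siRNAs ATP6V1H ranged over 0.13 in A673 and 0.18 in SK-N-MC, where ATP6V1D ranged over 1.81 and 1.76.

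**Figure D2:**
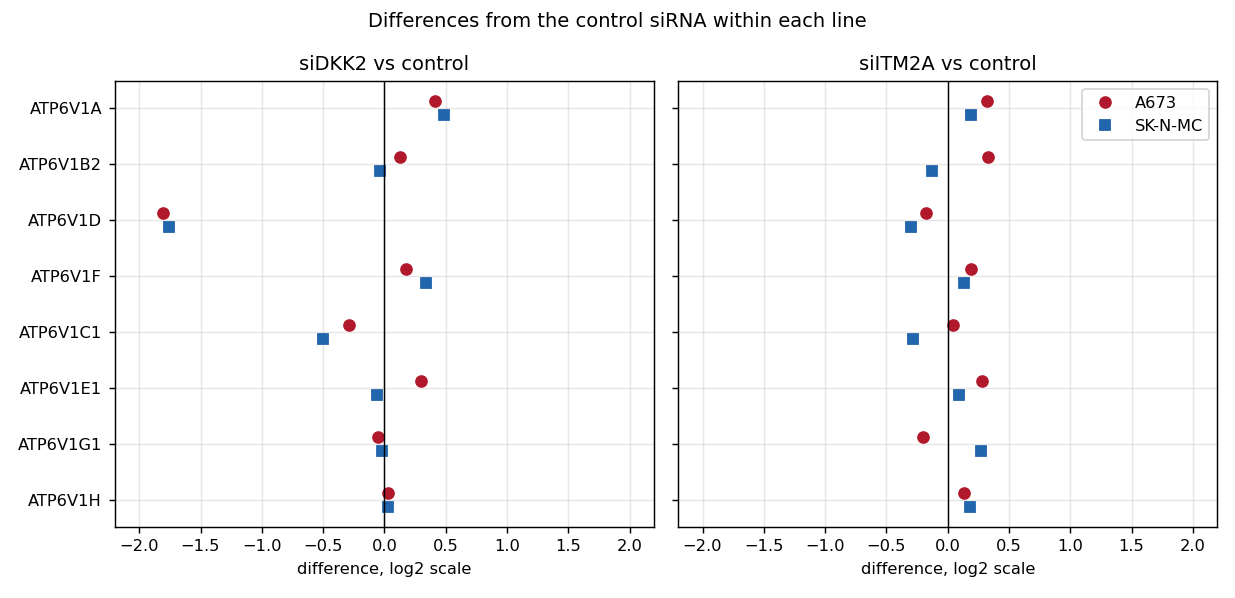
Differences from control siRNA on the log2 scale (horizontal axis) for the 8 V1 genes, with siDKK2 in the left panel and siITM2A in the right, A673 as circles and SK-N-MC as squares. ATP6V1D lies at -1.81 and -1.76 with siDKK2 and at -0.18 and -0.30 with siITM2A, and the other genes lie between -0.50 and 0.49 in both panels.

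The ITM2A siRNA showed whether V1 genes moved with a different knock-down. It shares its control arrays with the siDKK2 comparison, so a high control value of ATP6V1D would enter both. None of the 8 V1 genes passed the threshold (limma, 0 of 8, lowest adjusted p = 0.790, 0 at an unadjusted p under 0.05). Of all 18417 genes 2 did (0.0109%), and 1273 were under 0.05 unadjusted. ATP6V1D had differences of -0.18 (A673) and -0.30 (SK-N-MC), a fitted -0.24 ± 0.13 (SE, n = 2 lines, limma adjusted p = 0.803). Its 95% interval ran from -0.53 to 0.05, so a fall of 2-fold lay outside it. The fitted value of ATP6V1D was the lowest of the 8. It was the 1 V1 gene lower in both lines, where 4 were higher in both. Over all genes 30.7% were lower and 21.2% higher in both. The highest fitted value was that of ATP6V1A at 0.25 ± 0.13 (interval -0.05 to 0.55), and ATP6V1C1 was at -0.12 ± 0.14 (interval -0.44 to 0.19). ATP6V1B2, ATP6V1C1 and ATP6V1G1 had opposite signs in the lines.

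Set directly against each other, siDKK2 and siITM2A arrays share the siDKK2 values with the comparison that chose the family, and are described only. ATP6V1D differed by -1.63 (A673) and -1.46 (SK-N-MC) on the log2 scale. The other 7 genes differed by -0.34 to 0.14 in A673 and by -0.29 to 0.30 in SK-N-MC.

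Between the lines, 2 of the 8 V1 genes differed past the threshold, both higher in A673, which is near the share of all genes that did (limma, 28.5%). This comparison was not used in choosing the family. ATP6V1B2 was at 8.39 to 8.72 in A673 and at 7.17 to 7.30 in SK-N-MC, so the lines did not overlap. It was higher in A673 by 1.30 ± 0.12 (SE, n = 3 siRNAs, limma adjusted p = 9.01e-05), that is 2.46-fold, and by 1.26 with siDKK2, 1.55 with siITM2A and 1.09 with control siRNA. ATP6V1D was higher in A673 by 0.57 ± 0.10 (limma adjusted p = 0.00366), by 0.50, 0.66 and 0.55 with the same siRNAs. The siDKK2 arrays, where the gene was low, thus had a gap between the lines close to that of the other arrays.

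ATP6V1C1 was lower in A673 with each siRNA (-0.31 with siDKK2, -0.20 with siITM2A and -0.53 with control siRNA) and narrowly missed the threshold, at -0.35 ± 0.11 (limma adjusted p = 0.0502, and 0.0345 to 0.231 over the alternative settings, 4 of which it passed). The remaining 5 had fitted differences from -0.24 to 0.18 with adjusted p of 0.223 or more. For ATP6V1A the 95% interval of the difference was -0.11 to 0.37 and for ATP6V1E1 -0.18 to 0.34.

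**Figure D3:**
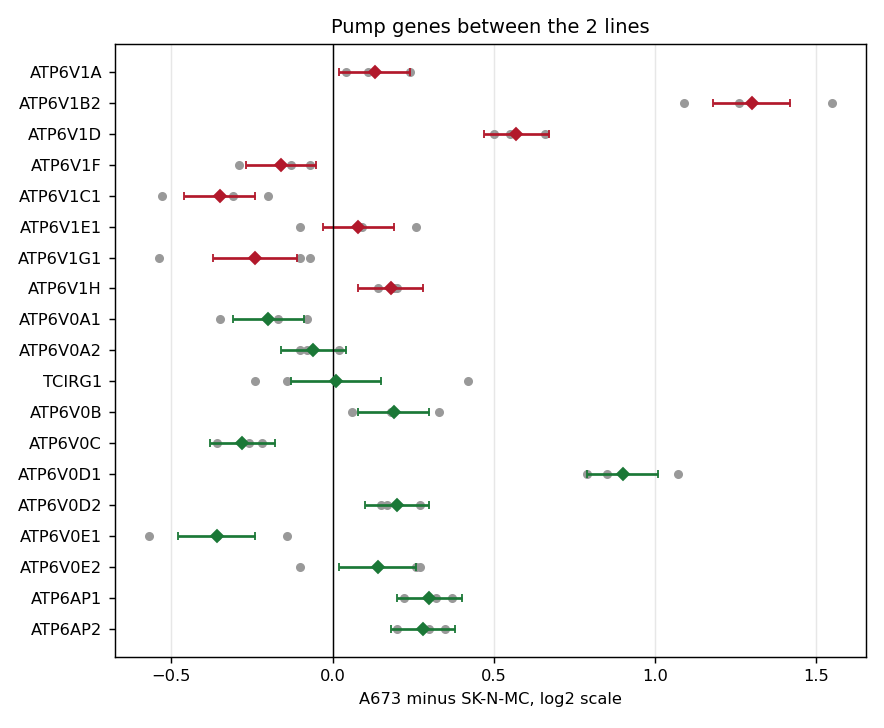
Differences of A673 minus SK-N-MC on the log2 scale (horizontal axis) for the 8 V1 genes (upper rows) and the 11 measured V0 and accessory genes (lower rows), with grey points for the 3 siRNAs and diamonds with bars for the fitted difference ± SE. ATP6V1B2 at 1.30, ATP6V0D1 at 0.90 and ATP6V1D at 0.57 lie farthest to the right.

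The tissue-restricted V1 isoforms were dim in both lines. ATP6V1B1, the head isoform known from kidney and inner ear, stood at 3.40, 3.90 and 3.75 in A673 (siDKK2, siITM2A and control siRNA) and at 3.31, 3.58 and 3.48 in SK-N-MC. ATP6V1C2 was between 2.32 and 2.61, ATP6V1E2 between 3.04 and 3.66, and ATP6V1G3 between 1.90 and 2.04 over the 6 arrays. All of these values were under the level of the median gene, 4.04. ATP6V1G2 was not analysed here. None of the 4 passed the threshold with siDKK2 (limma, 0 at an unadjusted p under 0.05). Of all 18417 genes 2 did (0.0109%), and 1598 were under 0.05 unadjusted. DKK2, the target, did not pass either (limma adjusted p = 0.209), so 0 calls in a short list is no result about that list. The siDKK2 differences of the 4 isoforms ran from -0.35, for ATP6V1B1 in A673, to 0.09. Between the lines 1 of the 4 passed, where 28.5% of all genes did. It was ATP6V1E2, lower in A673 than in SK-N-MC (-0.37 ± 0.12, SE, n = 3 siRNAs, limma adjusted p = 0.0450).

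Among the genes of the V0 sector and the accessory subunits, the lowest siDKK2 difference in either line was -0.36. Of 11 measured genes 0 passed the threshold with siDKK2 in either direction (limma, 1 at an unadjusted p under 0.05). Of all 18417 genes 0.0109% passed, and 1598 were under 0.05 unadjusted. The median fitted difference was 0.09, against -0.02 over all genes. Both directions were equally frequent, with 5 genes lower and 5 higher in both lines. The a subunit genes, which anchor the stalks and hold the proton path, had differences of -0.36 and -0.18 (ATP6V0A1), -0.12 and -0.10 (ATP6V0A2) and -0.16 and 0.50 (TCIRG1, the isoform of the osteoclast pump). The ring genes ATP6V0B and ATP6V0C stood at 0.19 and 0.03 and at -0.05 and -0.19. ATP6V0D1, whose product caps the ring where the V1 shaft docks, had differences of 0.12 and 0.06. Of the shaft genes, ATP6V1D had -1.81 and -1.76 and ATP6V1F had 0.18 and 0.34.

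ATP6V0E1, a small membrane subunit, was at 0.05 and 0.28 and its paralog ATP6V0E2 at 0.15 and 0.52, the highest fitted value of the list (0.34 ± 0.15, limma adjusted p = 0.570). The accessory genes ATP6AP1 (0.09 and 0.19) and ATP6AP2 (0.00 and -0.10) were near 0. The product of ATP6AP2 is also known as the prorenin receptor. ATP6V0D2, the osteoclast isoform of subunit d, lay between 1.73 and 2.02 on all arrays. ATP6V0A4 and RNASEK were not analysed here. With siITM2A 0 of 11 passed (limma, 1 at an unadjusted p under 0.05), where 0.0109% of all genes did (1273 unadjusted). Between the lines 1 of 11 did, where 28.5% of all genes did, so the count is no result about the list. That gene was ATP6V0D1, at 7.37, 7.46 and 7.25 in A673 with siDKK2, siITM2A and control siRNA and at 6.52, 6.39 and 6.46 in SK-N-MC. It was higher in A673 by 0.90 ± 0.11 (SE, n = 3 siRNAs, limma adjusted p = 0.000396).

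**Figure D4:**
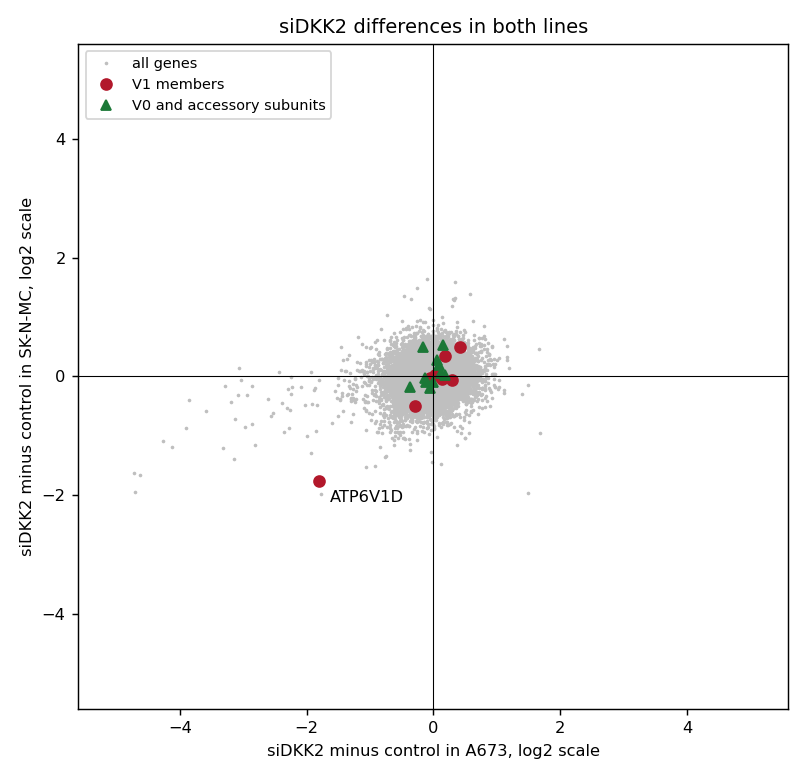
Differences of siDKK2 minus control siRNA on the log2 scale in A673 (horizontal axis) and in SK-N-MC (vertical axis) for all 18417 genes (grey), the 8 V1 genes (circles) and the 11 V0 and accessory genes (triangles). ATP6V1D stands at -1.81 and -1.76, away from the other pump genes, which lie among the bulk of all genes.

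Assembly factors of the pump and TLDc-domain genes, taken as 1 list, included no gene past the threshold with siDKK2 (limma, 0 of 9, 3 at an unadjusted p under 0.05). Of all 18417 genes 0.0109% passed, and 1598 were under 0.05 unadjusted. Lower values in both lines were found for 6 of 9, against 31.6% of all genes. The 3 with the largest differences in both lines were NCOA7, a TLDc-domain protein that binds V1, at -0.38 and -0.61, DMXL2, of the complex that joins V1 to V0, at -0.36 and -0.39, and OXR1, a further TLDc-domain protein, at -0.32 and -0.35. TMEM199 and CCDC115 were not analysed here. Between the lines, where 28.5% of all genes passed, DMXL2 was lower in A673 (-0.72 ± 0.11, limma adjusted p = 0.00119) and the TLDc gene MEAK7 higher (0.62 ± 0.11, limma adjusted p = 0.00279).

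Lysosomal genes and their TFEB-family regulators had no member past the threshold with siDKK2 (limma, 0 of 21, 1 at an unadjusted p under 0.05, median -0.04). Of all 18417 genes 0.0109% passed, and 1598 were under 0.05 unadjusted. Ranked by the smaller of the 2 line differences, the largest of 1 sign were those of TFEC (-0.80 and -0.18), the glycosidase gene GLA (-0.17 and -0.16) and the cholesterol exporter gene NPC1 (-0.42 and -0.15). Of the 21 genes 6 were lower and 4 higher in both lines, the latter including CTSD (0.35 and 0.14) and PSAP (0.21 and 0.14). TFEB itself differed by -0.01 and 0.21. Between the lines 12 of 21 passed the threshold, 9 higher in A673 and 3 lower, where 28.5% of all genes did in either direction. Those higher in A673 were TFEC (2.15 ± 0.14), the protease gene CTSB (1.58 ± 0.14), PSAP (1.04 ± 0.11), TPP1, GLA, TFE3, NPC1, CTSD and CD63. Those lower were CTSF, NEU1 and the calcium channel gene MCOLN1, at -0.39 to -0.67.

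The Ragulator, Rag and mTORC1 genes, whose products sense amino acids at the lysosome together with the pump, had 0 of 15 past the threshold with siDKK2 (limma, 1 at an unadjusted p under 0.05, median -0.05). Of all 18417 genes 0.0109% passed, and 1598 were under 0.05 unadjusted. FLCN was at -0.39 and -0.17, RRAGC at -0.15 and -0.28 and MLST8 at 0.68 and 0.14. Between the lines RRAGD (-2.61 ± 0.12), MLST8 (-0.91 ± 0.13) and LAMTOR4 (-0.52 ± 0.12) were lower in A673 and FLCN was higher (0.76 ± 0.11), each past the threshold (limma, adjusted p of 0.0111 or less). These 4 of 15 are close to the 28.5% of all genes that passed, so the count is no result about the list. Other carriers of protons, chloride and bicarbonate had 0 of 9 past the threshold with siDKK2 (limma, 0 at an unadjusted p under 0.05), again beside 0.0109% of all genes. SLC4A2 was at -0.33 and -0.18, CLCN7, the chloride carrier of lysosomes, at 0.06 and 0.54 and SLC9A9 at 0.10 and 0.03. SLC4A2 was the 1 carrier gene of 9 that differed between the lines (-0.95 ± 0.13, limma adjusted p = 0.000647), where 28.5% of all genes did.

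None of the genes next to ATP6V1D on chromosome 14 was 2-fold lower with siDKK2 in either line. EIF2S1, whose start is 524 bases away in the opposite direction, stood at 8.15 with siDKK2, 8.33 with siITM2A and 8.52 with control siRNA in A673, and at 8.24, 8.34 and 8.45 with the same siRNAs in SK-N-MC. Its siDKK2 differences of -0.38 and -0.21 left 77.1% and 86.3% of the control level. PALS1, a cell polarity gene on the other side, differed by -0.18 and -0.56, and PLEK2, a pleckstrin-family gene, by -0.51 and -0.05. GPHN, whose annotated span includes ATP6V1D, was at 0.10 and 0.22. GARIN2 (0.06 and -0.10) and TMEM229B (-0.17 and -0.32) were dim, between 2.14 and 2.73. PALS1, EIF2S1, PLEK2 and TMEM229B were lower in both lines, as were 31.6% of all genes. GPHN was higher in both and GARIN2 was of mixed sign. None of the 6 neighbours passed the threshold (limma, lowest adjusted p = 0.556, lowest unadjusted p = 0.0421, both PALS1). Of all genes 0.0109% passed, and 1598 were under 0.05 unadjusted.

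**Figure D5:**
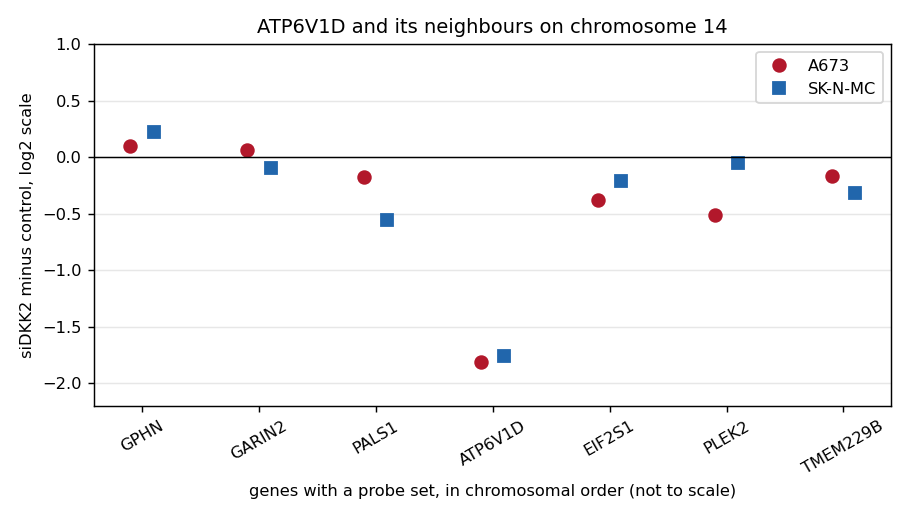
Differences of siDKK2 minus control siRNA on the log2 scale (vertical axis) for ATP6V1D and the 3 genes with a probe set on either side of it in the order of their annotated starts, A673 as circles and SK-N-MC as squares. ATP6V1D is at -1.81 and -1.76, and every neighbour lies between -0.56 and 0.22.

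The genes whose pattern was most like that of ATP6V1D were sought by the root-mean-square difference of line-centred log2 values over the 6 arrays, among 9208 other genes at or above the median level. They were IRF9 and ANKRD46 (0.16 each), EIF2AK2 (0.24), DKK2 (0.28) and CARNMT1 (0.29). IRF9 (-1.93 and -1.29 with siDKK2) and EIF2AK2 (-2.0 and -1.0) are interferon-induced genes, and ANKRD46 (-1.77 and -1.98) encodes an ankyrin-repeat protein. DKK2, the target of the siRNA, differed by -0.92 and -1.51 and so by less than ATP6V1D in both lines. Whether such interferon-induced genes have a part in the value of ATP6V1D was not tested. The V1 gene nearest to the pattern of ATP6V1D was ATP6V1C1, with a root-mean-square difference of 0.63, 399th in the order of likeness. The farthest was ATP6V1A at 0.96. The pattern of ATP6V1D is mostly its low siDKK2 values, which chose the family, so this order is a description only.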

How the data were processed

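RNA from both cell lines was measured on Affymetrix arrays that carry probes along the whole transcript, 1 per line and siRNA. The authors deposited log2 values per probe set, made with Affymetrix Expression Console and RMA, per the submitters' processing notes. The log2 scale was read from the range of 1.02 to 13.4, while program versions and settings were not stated in the labels or notes. RMA compresses differences of dim probe sets, and without scanner files signal over background could not be measured.

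Of 33297 probe sets, 19460 had 1 symbol in the platform annotation, which can be old, 1754 had several and 12083 were not listed. For 769 genes with several probe sets the one with the highest mean was kept, which left 18417 genes. Each of the 6 columns carried its sample's label, and 0 columns belonged to no sample.

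The fit was made in R 4.3.3 with limma 3.58.1 (lmFit, eBayes) on all 6 arrays with siRNA and line as terms, which leaves 2 residual degrees of freedom, moderated to 8.28. The line pairs the arrays across siRNAs, per the labels. Benjamini-Hochberg adjustment ran over the 18417 genes, with a threshold of 0.05. No label says that arrays came from separate cultures of 1 condition, so the spread in the fit is that over the lines or siRNAs. The moderation draws much of that spread from all genes (6.28 of the 8.28 degrees of freedom). The p-values thus set the size of a difference against a largely shared spread. The fit was also run on data simulated from its own model, which cannot show how well it suits these arrays. Promoters came from RefSeq.

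The members, gene lists and motifs were chosen with earlier results of these data known. Genes named were the members, the V1 isoforms, all measured V0 and accessory genes, 3 genes on each side of ATP6V1D, the 5 genes most like it, the 3 of each other list with the largest smaller-of-the-lines siDKK2 difference of 1 sign, and list genes past the threshold. TFEB was added after its values were seen. Alternatives were no line or siRNA term, an intensity trend, the arrays of 2 groups alone, other scalings, a filter on low values, the mean of probe sets, and leaving out each array.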

Additional observations from a re-analysis of the deposited data

Results flagged for a closer look

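Some differences had opposite signs in the 2 lines. With 1 array per line and siRNA, the differences between lines were not tested. With siDKK2 against control, ATP6V1B2 had values of 0.13 (A673) and -0.04 (SK-N-MC), 0.17 apart, and, in the same order of lines, ATP6V1E1 was at 0.30 and -0.06 (0.36 apart), ATP6V1C2 at 0.09 and -0.10 (0.19 apart) and GARIN2 at 0.06 and -0.10 (0.16 apart). TCIRG1 was at -0.16 and 0.50, a gap of -0.66 and the widest of the set.

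With siITM2A against control, ATP6V1B2 was at 0.33 and -0.13 (0.45 apart), ATP6V1C1 at 0.04 and -0.28 (0.33 apart) and ATP6V1G1 at -0.20 and 0.27 (a gap of -0.47). With siDKK2 against siITM2A, ATP6V1B2 was at -0.20 and 0.08 (a gap of -0.28), ATP6V1E1 at 0.02 and -0.15 (0.17 apart), ATP6V1F at -0.02 and 0.21 (a gap of -0.23) and ATP6V1G1 at 0.14 and -0.29 (0.43 apart).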

How the results depend on the processing

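The fitted siDKK2 difference of ATP6V1D lay between -1.84 and -1.73 over all settings, and its distance from the median of the other 7 V1 genes, -1.82, became -1.97 to -1.74 with 1 array left out. The 2 genes called for siDKK2 against control became 0 with no replicate block (the line term left out; limma, 322 at an unadjusted p under 0.05), 0 with only the arrays of the 2 groups (1433) and 7 with an intensity trend. With 1 array left out they were 0 to 60: 0 without the A673 siDKK2 array (1114) or either siITM2A array (1433), and, for SK-N-MC, 45 when its control array was left out and 60 when its siDKK2 array was.

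For siITM2A against control the 2 became 0 with no replicate block (230 at an unadjusted p under 0.05) and 0 to 4 with 1 array left out (0 without either siITM2A array, 957 and 902 unadjusted, and 4 when the control array of SK-N-MC was left out). No V1 gene was called there in any setting. For siDKK2 against siITM2A the 3 became 0 with no replicate block (272 at an unadjusted p under 0.05), 16 with an intensity trend, 18 with only the arrays of the 2 groups, 6 among genes at or above the median level and 1 to 50 with 1 array left out (1 without either siITM2A array, 18 without either control array and 50 when the siDKK2 array of SK-N-MC was left out). Between the lines 2 V1 genes were called, and 1 with no replicate block (the siRNA term left out), where ATP6V1D lost its call (0.57, adjusted p = 0.524) because its siDKK2 difference then counts as spread. ATP6V1B2 passed in all 13 settings.

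Small values changed sign on leaving out 1 array, and none was past the threshold. ATP6V1B2 with siITM2A ran from -0.08 to 0.28 (-0.06 without the control array of A673 and -0.08 lacking its siITM2A array), and ATP6V1C1 from -0.26 to 0.01 (0.01 lacking the SK-N-MC control array). ATP6V1G1 ran from -0.19 to 0.26 (-0.09 lacking the SK-N-MC control array, -0.19 lacking the siITM2A array of that line). ATP6V1E1 between the lines ran from -0.01 to 0.17, with -0.01 lacking either siDKK2 array. The siDKK2 differences from control, described without a test, also crossed 0 for ATP6V1B2 (-0.11 to 0.20), ATP6V1E1 (-0.02 to 0.26) and ATP6V1G1 (-0.16 to 0.09). Against siITM2A the same 3 genes crossed 0 (-0.24 to 0.13, -0.20 to 0.06 and -0.30 to 0.15, in that order).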
